A study of Mus musculus with 2 samples.

Results

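The 9 genes described here encode GATA factors other than Gata3 and proteins that work beside GATA factors: *Gata1*, *Gata2*, *Gata4*, *Gata6*, *Zfpm1*, *Zfpm2*, *Lmo2*, *Ldb1* and *Tal1*. They were chosen by name, with earlier results of these data known, and are 9 of 21938 protein-coding genes of GENCODE M21 on chromosomes 1 to 19, X and Y. Gata3 occupancy was read from ChIP-seq of splenic mouse TH2 cells grown *in vitro*, in 2 libraries that the labels number as replicates of the same condition. The labels do not say whether the replicates came from separate cultures, and one protocol field names ILC2 where the others name TH2 cells. Reads at a site were compared with the read density around it in the same library, since no input chromatin was used here.

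GATA factors are zinc finger proteins that bind the sequence WGATAR (W is A or T, R is A or G). FOG proteins, encoded by *Zfpm1* and *Zfpm2*, do not bind this site themselves but dock on the amino-terminal zinc finger of a GATA factor and modify what it does to its targets. In blood cells, Gata1 or Gata2 can also join a complex in which Tal1 binds a neighbouring E-box, Lmo2 bridges the proteins, and Ldb1 dimerises to link distant sites. Gata3 is the GATA factor that directs TH2 differentiation, and FOG-1 is known as a repressor of Gata3 activity in T cells.

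A peak was a run of 200-bp windows whose reads exceeded a local expectation (exact Poisson test, one-sided, adjusted to a Benjamini-Hochberg q of 0.01). The expectation was the mean of the library, of 5 kb or of 10 kb around the window, whichever was largest. A peak is called shared where the peaks of both libraries overlap. A gene region is the gene body with 20 kb on either side, RPM is the read count scaled to the size of the library, and distances are from the start of the principal transcript. A summit is the middle of the fullest window of a peak, taken from library 1 unless stated.

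The sequences below, from the RefSeq copy of GRCm38, are the 201 bases centred on summits of shared peaks. They are the tallest shared peak of *Gata2*, *Gata4*, *Gata1*, *Ldb1* and *Tal1*, and 2 peaks of *Zfpm1* in intron 1, chosen after their values were seen because one is the second tallest of the 12 peaks and the other holds the most motifs within 100 bp of its summit. Capitals mark WGATAR, the letters GATA with A or T before and A or G after them, or its reverse complement, TATC with C or T before and A or T after, where the motif lies on the minus strand.
Zfpm1 +0.7 kb, chr8:122282750-122282950, plus strand: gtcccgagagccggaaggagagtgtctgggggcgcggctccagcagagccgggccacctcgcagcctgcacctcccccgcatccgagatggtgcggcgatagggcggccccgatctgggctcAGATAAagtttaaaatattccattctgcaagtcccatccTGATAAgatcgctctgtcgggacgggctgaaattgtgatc
Zfpm1 +11.6 kb, chr8:122293600-122293800, plus strand: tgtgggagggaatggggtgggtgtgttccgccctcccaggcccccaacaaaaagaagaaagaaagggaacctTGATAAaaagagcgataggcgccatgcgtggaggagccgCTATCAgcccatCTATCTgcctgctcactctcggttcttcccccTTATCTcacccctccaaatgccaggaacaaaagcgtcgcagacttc
Gata2 -4.0 kb, chr6:88189800-88190000, plus strand: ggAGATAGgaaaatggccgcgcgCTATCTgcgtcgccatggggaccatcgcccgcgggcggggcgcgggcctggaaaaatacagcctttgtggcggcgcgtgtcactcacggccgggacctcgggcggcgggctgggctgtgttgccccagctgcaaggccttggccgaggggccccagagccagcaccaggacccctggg
Gata4 -11.0 kb, chr14:63256100-63256300, plus strand: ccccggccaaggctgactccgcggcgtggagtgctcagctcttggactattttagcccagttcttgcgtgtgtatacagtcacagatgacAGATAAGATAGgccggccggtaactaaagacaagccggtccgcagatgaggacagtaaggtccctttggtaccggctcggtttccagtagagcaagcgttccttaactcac
Gata1 +3.5 kb, chrX:7964350-7964550, plus strand: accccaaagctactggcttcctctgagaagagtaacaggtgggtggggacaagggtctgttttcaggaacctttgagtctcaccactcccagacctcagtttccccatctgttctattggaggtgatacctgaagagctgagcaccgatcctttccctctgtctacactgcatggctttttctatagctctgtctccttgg
Ldb1 -11.4 kb, chr19:46056250-46056450, plus strand: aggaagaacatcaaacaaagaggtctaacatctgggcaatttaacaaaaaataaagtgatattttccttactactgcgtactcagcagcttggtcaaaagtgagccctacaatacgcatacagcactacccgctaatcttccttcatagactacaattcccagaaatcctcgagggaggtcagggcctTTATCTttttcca
Tal1 -18.0 kb, chr4:115038350-115038550, plus strand: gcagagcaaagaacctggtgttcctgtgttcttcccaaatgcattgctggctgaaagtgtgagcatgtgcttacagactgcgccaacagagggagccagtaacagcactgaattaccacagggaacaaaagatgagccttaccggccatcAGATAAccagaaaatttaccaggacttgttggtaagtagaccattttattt
In *Gata4*, 2 motifs overlap by 1 base at the summit, while the *Gata1* window holds none. The whole *Gata1* peak in library 1, which is longer than the window shown, holds 3.

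Shared Gata3 peaks lay in the regions of 7 of the 9 genes (77.8%), and *Zfpm1* carried 5 of the 12 peaks. *Gata2* had 2, and *Gata1*, *Gata4*, *Gata6*, *Ldb1* and *Tal1* had 1 each, whereas *Zfpm2* and *Lmo2* had 0. Over all protein-coding genes, 54.8% had a shared peak in the gene region. Among genes within 20% of each member's region in length, the share ran from 46.4% (for *Gata2*) to 73.6% (for *Gata4*). The median was 1 shared peak per gene for the 9 genes and also for all genes. Library 1 alone had a peak in all 9 regions, against 81.2% of all genes, and library 2 alone in 7, against 58.9%. Of the 34 peaks in the 9 regions, 21 were called in library 1 only and 1 in library 2 only. Library 1 thus had 33 peaks there and library 2 had 13, with 12 shared. Over the genome, library 1 had 71726 peaks and library 2 had 28204, with 23806 shared, so most library 1 peaks were unshared there too.

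The reads themselves are drawn for each gene by distance from its start.

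**Figure D1:**
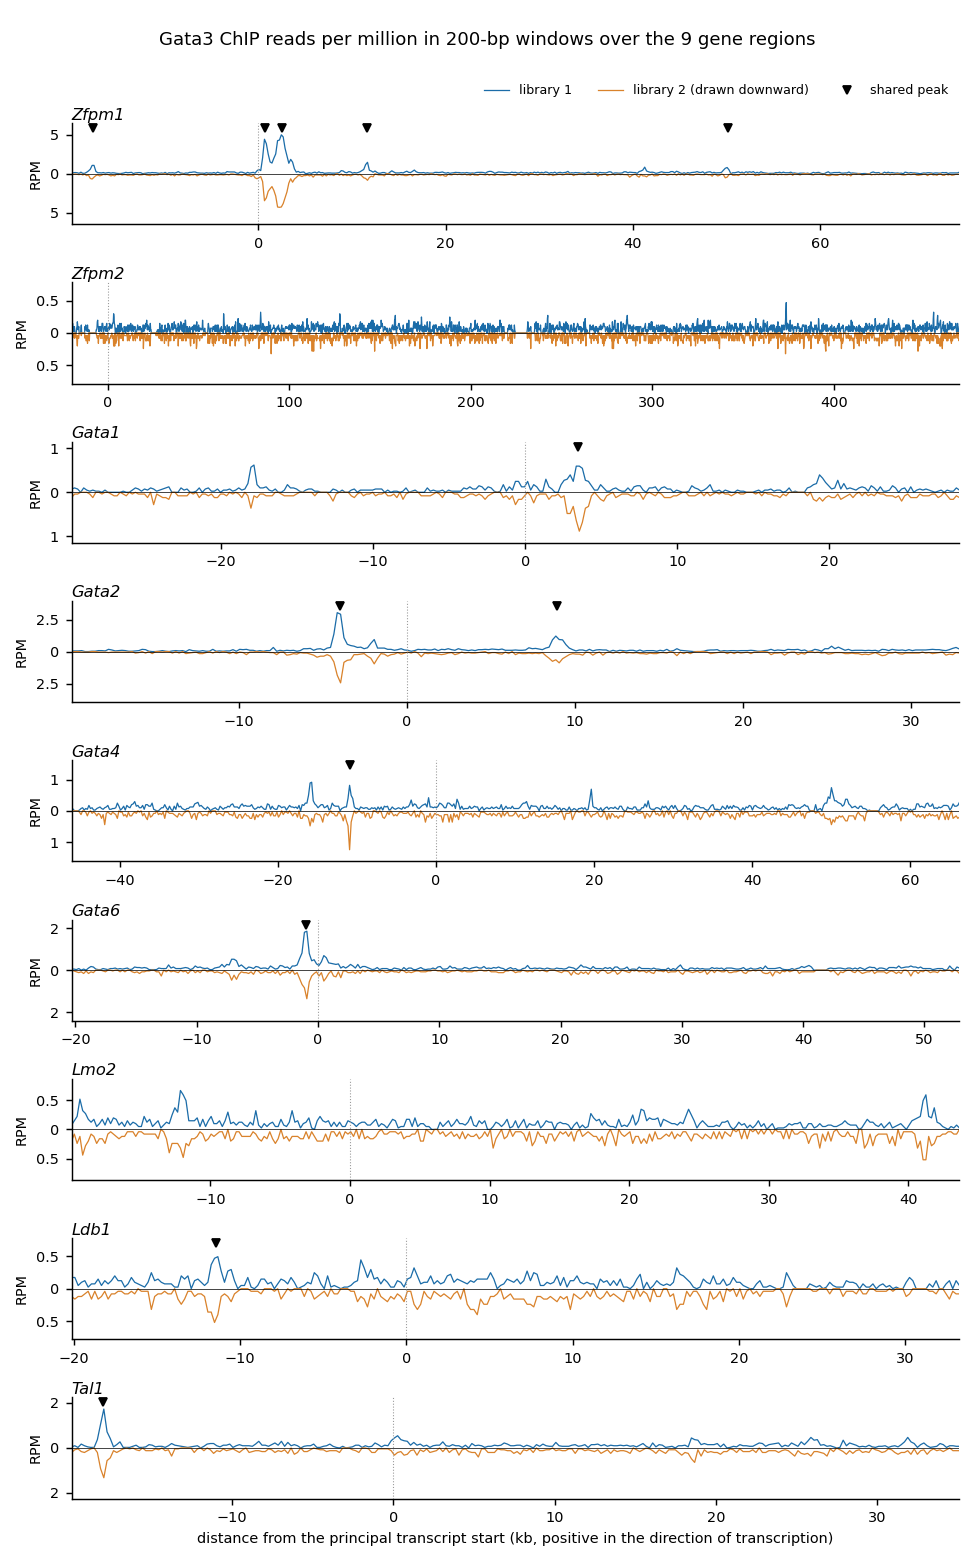
RPM in 200-bp windows (y axis, library 1 upward and library 2 downward, a scale of its own for each gene) against distance from the principal transcript start in kb, with triangles at the 12 shared peaks. *Zfpm1* shows a tall double peak just after its start, and *Zfpm2* shows 0 shared peaks over 490 kb.

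*Zfpm1* encodes FOG-1 and occupies chr8:122282141-122337251 (GRCm38, plus strand), with 10 exons. Its tallest shared peak had its summit at +2559 bp in intron 1. In the summit window 205 reads were counted in library 1 and 112 in library 2, which is 5.06 RPM (95% exact Poisson interval 4.39 to 5.80) and 4.49 RPM (3.69 to 5.40). Ranked by the lower RPM of both libraries it was number 92 of 23806 shared peaks, at the 99.6 percentile. The summits of the libraries lay 400 bp apart within the same peak. A neighbouring peak at +709 bp, also in intron 1, held 183 and 93 reads, or 4.52 and 3.73 RPM, at the 98.6 percentile. Both stood apart from the other 3 shared peaks of the gene in height, with intervals that do not overlap theirs in either library.

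The reads just after the start of *Zfpm1* formed a broad stretch. At the transcript start itself the 200-bp window held 23 reads in library 1 and 17 in library 2, which is 7.74-fold and 9.28-fold over the library mean. At +200 bp, before the stretch, it held 14 and 6 reads, or 4.71-fold and 3.28-fold. At +1500 bp, between the summits, it held 52 and 40 reads, or 17.5-fold and 21.8-fold. At +5000 bp it held 3 and 4 reads, or 1.01-fold and 2.18-fold, but library 2 again reached 6.55-fold at +5900 bp. Consecutive 200-bp bins that all reached 5-fold in each library ran for 3800 bp, from +260 to +4059 bp, and averaged 35.4-fold and 31.7-fold. Of 208 such runs of at least 2 kb in the genome, 7 were longer.

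**Figure D2:**
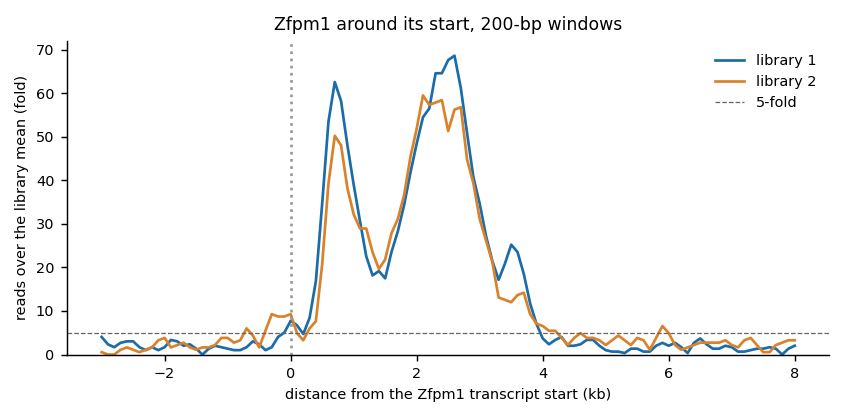
Reads in 200-bp windows over the library mean (y axis, fold) against distance from the *Zfpm1* transcript start in kb for both libraries, with a dashed line at 5-fold. Both libraries show 2 summits with a dip near 1.5 kb between them. Both pass 5-fold shortly before the start and lie below it at 200 bp, before the rise to the first summit. Library 2 passes it again at 5.9 kb.

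The local background at these summits includes the stretch itself. It was 82.2 reads per window in library 1 and 46.6 in library 2 at the tallest summit, which was therefore 2.49-fold and 2.40-fold over it (exact Poisson p = 4.32e-30 and 3.59e-16). A requirement of 5-fold over the local background in both libraries removes all 5 shared peaks of *Zfpm1*, also those outside the stretch. Of these, the peaks at -17641 and +11559 bp reached 6.14-fold and 5.38-fold in library 1 but 3.74-fold and 3.82-fold in library 2. The peak at +50109 bp reached 3.84-fold in library 1 and 3.91-fold in library 2. A q of 1e-10 leaves the peak at +2559 bp.

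The other shared peaks of *Zfpm1* were lower. The peak at +11559 bp in intron 1 held 63 and 22 reads (1.56 and 0.881 RPM), and 4 WGATAR motifs lay within 100 bp of its summit. The peak at +50109 bp in intron 5 held 35 and 15 reads (0.864 and 0.601 RPM). The peak 17641 bp before the start held 55 and 19 reads (1.36 and 0.761 RPM) and had 0 WGATAR near its summit. That summit lies outside *Zfpm1* but in intron 1 of Gm20388, a longer annotated gene model that also spans *Zfpm1*. All 3 were lower in library 2 than in library 1 in RPM.

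Of the genes within 20% of the *Zfpm1* region in length, 69.0% had a shared peak and 4.04% had 5 or more. With 100-bp windows *Zfpm1* itself had 3 shared peaks. Read density over the whole region was 3.40-fold (library 1) and 3.09-fold (library 2) that of the library, at the 99.7 and 99.5 percentile of protein-coding genes. Shared peaks held 37.3% of the reads of the region in library 1 and 33.7% in library 2. Within 1 kb of the start, the density was 17.2-fold and 14.8-fold. Its start is rich in CpG, with an observed over expected CpG ratio of 0.969 (96.6 percentile). Across all 10434 genes with a ratio above 0.6 the median density at the start was 1.92-fold and 2.07-fold, against 1.24-fold and 1.26-fold for the others. The part of CpG content in the reads at *Zfpm1* was not tested.

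*Zfpm2* encodes FOG-2, the partner of Gata4 in heart and gonad. It spans 449558 bp (chr15:40655035-41104592, plus strand) and had 0 shared peaks. Library 1 had 4 peaks in its introns, with 12, 15, 13 and 19 reads. The highest window of library 2 within them held 2, 4, 2 and 4 reads. A call in library 2 needed 10 or 11 reads there. Read density over the region was 0.930-fold and 0.757-fold of the library mean, below the median gene region (1.36-fold and 1.33-fold). Of its 200-bp bins, 13.7% in library 1 and 29.3% in library 2 held 0 reads, against 20.1% and 26.2% for *Gata1*. Some stretches, such as -9935 to -6535 bp, held 0 reads in both libraries. The reason was not tested. Among genes of like length, 72.6% had a shared peak. The region holds 1571 WGATAR motifs, 3.21 per kb, the most of the 9 regions by either measure.

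*Gata2*, needed in blood stem cells and mast cells, occupies chr6:88193891-88207032 (plus strand). Its taller peak lay 3991 bp before the start, in intron 1 of the lincRNA Gm38708. It held 128 reads in library 1 and 61 in library 2, or 3.16 RPM (2.64 to 3.76) and 2.44 RPM (1.87 to 3.14), at the 93.9 percentile. This was 5.20-fold and 4.64-fold over the local background (exact Poisson p = 7.27e-49 and 9.06e-22). The other peak, at +8909 bp in intron 4, held 53 and 22 reads (1.31 and 0.881 RPM). A peak 1991 bp before the start, called in library 1 only, held 45 and 22 reads beside a background that needed 29 reads in library 2. The *Gata2* region as a whole stood at 2.303-fold and 2.19-fold, at the 97.1 and 96.1 percentile of genes. Among genes of like length, 19.5% had 2 or more shared peaks.

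*Gata1*, the GATA factor of red cells, megakaryocytes, eosinophils and mast cells, occupies chrX:7959260-7978071 (minus strand). Its 1 shared peak, at +3460 bp in intron 1, held 28 and 26 reads, or 0.691 RPM (0.459 to 0.999) and 1.04 RPM (0.680 to 1.53). Its summits lay 150 bp apart, so it is no longer shared where summits must lie within 100 bp, as is also true of the *Zfpm1* peaks at +2559 and +50109 bp. It lies 284 bp before the start of a shorter *Gata1* transcript. A peak 17890 bp before the start was called in library 1 with 31 reads, and library 2 held 9 reads there, 1 read short of the 10 needed. Chromosome X held 0.444 and 0.522 times the read density of the autosomes. With the mean of each chromosome in place of the library mean, an alternative chosen after seeing the data, the region kept 1 shared peak.

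*Gata4*, an endoderm and heart factor, occupies chr14:63198922-63271692 (minus strand). Its shared peak lay 10952 bp before the principal start, in intron 1 of a longer transcript of the gene. The summit, at the same base in both libraries, held 33 and 31 reads, or 0.815 RPM (0.561 to 1.14) and 1.24 RPM (0.844 to 1.76). It was 4.74-fold and 7.05-fold over the local background (exact Poisson p for library 2 = 1.53e-16). The overlapping pair of motifs shown above is centred at -7.5 and -2.5 bp from it. Another peak, 15902 bp before the start, held 46 reads in library 1 and 14 in library 2, 1 read short of the 15 needed.

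*Ldb1*, the dimerising adaptor, occupies chr19:46031570-46045214 (minus strand). Its shared peak, 11436 bp before the start, was the lowest of the 12 by the lower value of both libraries, with 24 and 16 reads, or 0.593 RPM (0.380 to 0.882) and 0.641 RPM (0.366 to 1.04). It lies in intron 1 of the neighbouring gene *Pprc1*, a transcription coactivator. The call is lost when library 1 is thinned to the depth of library 2 and with 100-bp windows.

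*Tal1*, the E-box binding partner, occupies chr4:115056426-115071755 (plus strand). Its shared peak lay 17976 bp before the start, in exon 15 of the neighbouring gene *Stil*, a centriole protein. The summit held 71 and 35 reads, or 1.75 RPM (1.37 to 2.21) and 1.40 RPM (0.977 to 1.95). At 7.62-fold and 6.68-fold over the local background (exact Poisson p = 8.15e-38 and 9.01e-18), it was the 1 peak of the 12 above 5-fold in both libraries. At +224 bp, next to its own start, *Tal1* had a peak in library 1 only, with 27 reads against 6 in library 2. Nearness to a gene does not show which gene a site acts on, and for *Tal1* and *Ldb1* the peak lies inside another gene.

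*Lmo2*, the bridging LIM protein, occupies chr2:103957986-103981878 (plus strand) and had 0 shared peaks. Library 1 had 3 peaks, with 21, 30 and 27 reads. Library 2 held 7, 13 and 13 reads at these sites and needed 15 at each. The density of the region, 1.54-fold and 1.55-fold over the library mean, was above that of the median gene region. With the 10-kb mean alone as the local background, 2 of the 3 sites, at -12095 and +41105 bp, were shared.

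**Figure D3:**
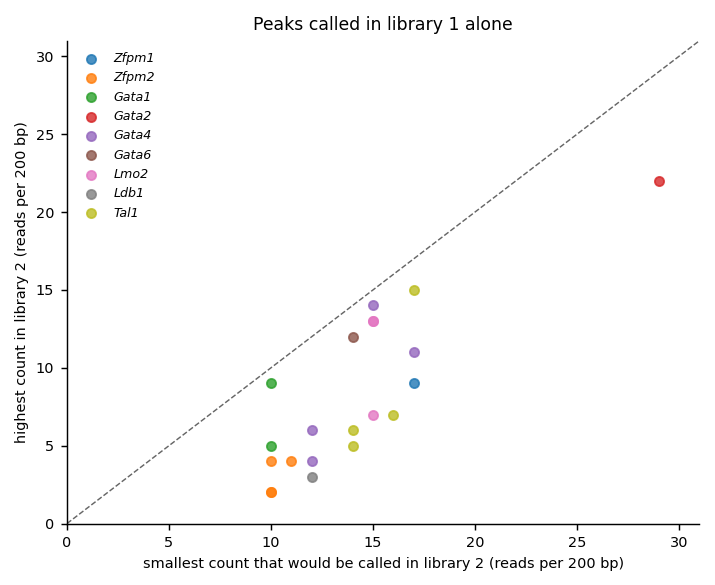
For the 21 peaks called in library 1 only, the highest count in library 2 (y axis, reads per 200 bp) against the smallest count that would have been called there (x axis), with equality dashed. All points lie below the line by selection, since a site that reached it would have been called in library 2. Those of *Gata1* at 9 of 10 and *Gata4* at 14 of 15 lie nearest to it.

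*Gata6*, which acts in endoderm and heart, occupies chr18:11052064-11085635 (plus strand). Its shared peak lay 1020 bp before the principal transcript start and 614 bp before the start of the gene, in an intron of the transcript 1010001N08Rik. It held 83 and 34 reads, or 2.05 RPM (1.63 to 2.54) and 1.36 RPM (0.943 to 1.90), with 2 WGATAR motifs within 100 bp of its summit. It was 4.44-fold and 4.55-fold over the local background (exact Poisson p = 8.40e-28 and 1.25e-12). A site 7170 bp before the start was called in library 1 only, with 25 reads against 12 in library 2, where 14 were needed. With 400-bp windows, 100-bp windows or the 10-kb background, *Gata6* had 2 shared peaks. The region as a whole differed between the libraries, at 1.61-fold in library 1 and 1.22-fold in library 2, which is the 74.5 and the 38.4 percentile of genes.

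*Zfpm1* and *Gata6* were the 2 genes with a shared peak within 2 kb of the gene start, where 11.7% of all genes had one. Counting the start of every annotated transcript adds *Gata1* and *Gata2*, for 4 of 9 (44.4%), against 17.2% of all genes. By position, 7 of the 12 peaks lay in the body of the member gene, 3 in another coding gene and 2 outside coding genes.

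**Figure D4:**
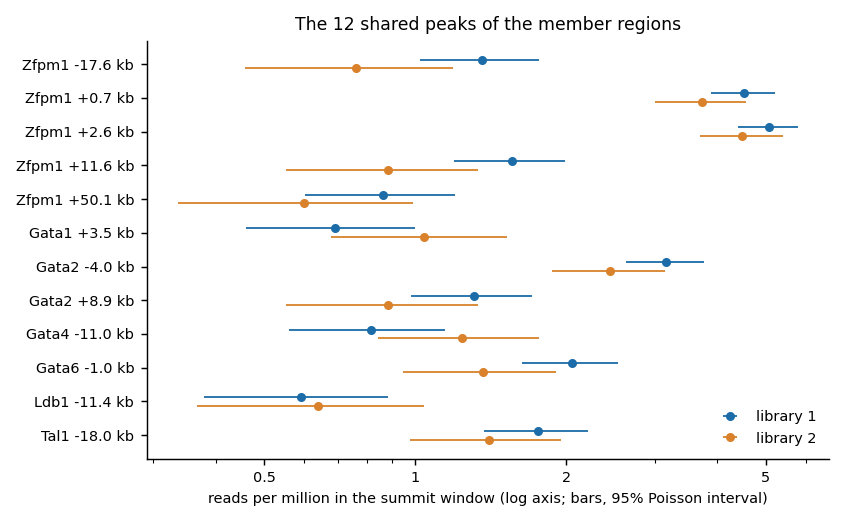
RPM in the summit window of each of the 12 shared peaks (x axis, log scale), with 95% exact Poisson intervals that cover counting error only, for both libraries. The *Zfpm1* peaks at +0.7 and +2.6 kb reach 3.73 RPM or more in both libraries, and the *Gata2* peak at -4.0 kb is next.

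Ordered by the lower of both libraries, the *Zfpm1* peak at +2559 bp came first, followed by *Zfpm1* at +709 bp, *Gata2* at -3991 bp, *Tal1* and *Gata6*. The intervals of the first and second overlap in each library, and so do those of *Tal1* and *Gata6*. Those of *Zfpm1* at +709 bp and *Gata2*, and of *Gata2* and *Tal1*, overlap in library 2 and not in library 1. The other 7 peaks lay between 0.593 and 0.881 RPM by this measure. All 12 heights can be read against the median shared peak, at 0.988 RPM in library 1 and 0.881 RPM in library 2, and 8 of the 12 exceeded 0.801 RPM, the median of the lower value over all shared peaks.

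Reads differed between the libraries at 6 of the 12 shared peaks (two-sided exact binomial test on library depth, adjusted over all shared peaks), against 15.7% of all shared peaks. All 6 were lower in library 2, as were 2752 of the 3730 that differed over the genome. These were 4 peaks of *Zfpm1*, 1 of *Gata2* and 1 of *Gata6*, with log2 ratios of library 2 over library 1 from -0.97 (*Zfpm1* at +50109 bp) to -0.39 (*Zfpm1* at +709 bp), against a median of -0.18 over all shared peaks. At the unadjusted level 8 passed. The libraries were scaled here by all reads, and shared peaks held 7.07% of reads in library 1 and 6.42% in library 2. Scaling by those reads instead moves every ratio by the same small amount. Scaled to reads in shared peaks, 0 of the 12 differed (3 *p* values adjusted over all peaks lay between 0.0528 and 0.0549), against 2847 of the 23806. The test compares libraries and not conditions, and the libraries were sequenced on different instruments, so run and replicate cannot be told apart.

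WGATAR lay within 100 bp of 10 of the 12 library 1 summits (83.3%), against 71.0% of all shared summits and 33.4% of windows 1 kb to either side of them. Within 100 bp of the library 2 summits it lay at 7 of the same 12 peaks (58.3%), against 66.2% of all. The share was thus above that of all shared peaks with one library's summits and below it with the other's. The whole extent of the peak held the motif in 11 of 12 (91.7%), against 89.6% of all. Of the 2603 WGATAR motifs in the 9 regions, 18 (0.692%) lay within 100 bp of a shared summit. The AP-1 site (TGACTCA or TGAGTCA, either strand) was near 0 of the 12 summits and 12.3% of all shared summits. The E-box and GATA arrangement, CTG followed after 7 or 8 bases by GATA on either strand, was likewise near 0 of 12 and 7.71% of all. A match is a description of letters in the window, and with 12 peaks none of these shares was tested.

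**Figure D5:**
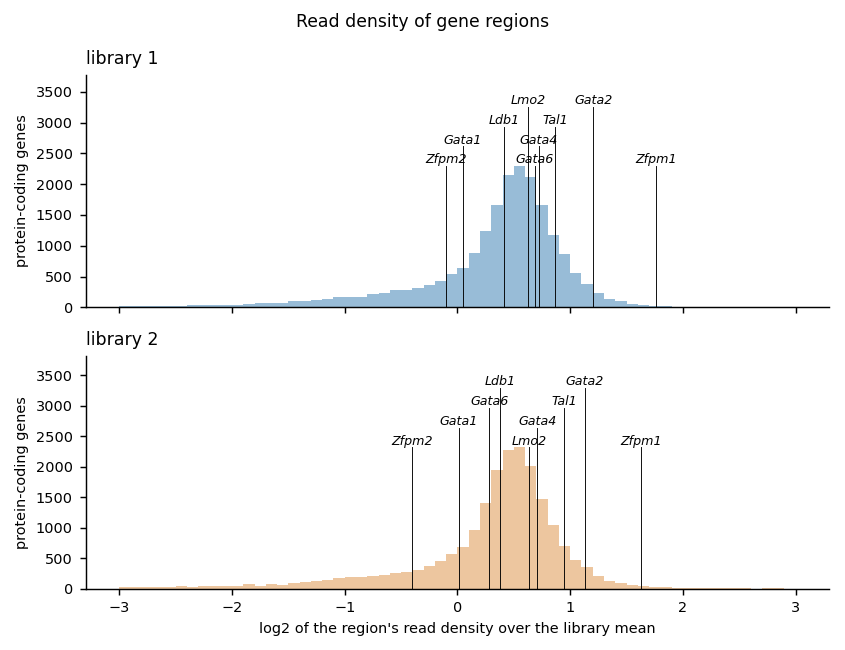
Number of protein-coding genes (y axis) by log2 of the read density of the gene region over the library mean (x axis, shown from -3 to 3) in library 1 and library 2, with the 9 genes as lines. *Zfpm1* and *Gata2* lie to the right of most genes in both libraries, and *Zfpm2* and *Gata1* to the left of the peak. The library mean is taken over all chromosomes, and *Gata1* lies on chromosome X, at 0.444 and 0.522 times the read density of the autosomes.

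Other genes of the same protein families and complexes were counted from a list of 27. Shared peaks lay in 21 of the 27 regions (77.8%), the same percentage as for the 9 genes and against 54.8% of all genes. They came to 68 peaks in all, with a median of 1 per gene. Most of the 27 regions are longer than the median gene region (57.4 kb), and the comparison with all genes was not matched for length. Within 2 kb of the start, 4 of the 27 had one, where 11.7% of all genes did: *Tcf3*, an E protein that pairs with Tal1, at 5.38 RPM by the lower library, *Runx1* at 3.77 RPM for its tallest peak, *Chd4* and *Rbbp4*. The most peaks were at *Tcf12* (11), *Runx1* (10) and *Trps1* (8), whose regions of 309, 265 and 276 kb are long. *Gata3* itself had 4. *Lmo4*, *Ssbp4*, *Tal2*, *Cbfa2t3*, *Spi1* and *Mta1* had 0. The type 2 cytokine genes *Il4*, *Il5* and *Il13* had 4, 5 and 3 shared peaks. The regions of *Il4* and *Il13* hold the same tallest peak, so these counts are not separate. These genes do not tell TH2 cells from ILC2, which also use Gata3.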

How the data were processed

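Gata3 ChIPmentation reads of 2 TH2 libraries were analysed. The authors aligned single reads to GRCm38, removed reads without a unique position and deposited read positions with a mapping quality score. The submitters' processing notes name Bowtie2 2.3.5.1 and MACS2 2.1.2. No peak list was used here. The deposited score was used only as a filter in one alternative. The libraries held 40526613 and 24970952 reads, a mean of 2.97 and 1.83 per 200-bp window, and 0 reads shared a 5′ end and strand. Each position and strand thus counted at most once per library, which caps the reads of a window. The effect of this cap on the tallest summits was not tested.

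Reads were shifted by 100 bp and counted in 200-bp windows every 50 bp. Windows were tested by the one-sided exact Poisson test described in the report, and those within 100 bp were joined. At the library mean the smallest count called was 12 reads (4.04-fold) in library 1 and 10 reads (5.46-fold) in library 2. Peaks were given to genes by the library 1 summit, and RPM in library 2 was read at its own summit. Intervals are 95% exact Poisson intervals and cover counting error only. The scripts were tested on simulated data. Planted sites were missed where the simulated background held few reads, so that test was scored where it held at least 0.5 of the mean. A pass mark for recovery was set only for the strongest planted sites, and the recovery of weaker ones is not given. Sequence is printed for 7 of the 12 shared summits, and 1 other sequence planned is not reported here. Named genes are the 9 members, the genes nearest to or holding their peaks, and a partner list. The members and lists were chosen with earlier results of these data known. Python 3.11.15, NumPy 2.4.6, SciPy 1.17.1, pandas 2.3.3 and Matplotlib 3.10.9 were used.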

Additional observations from a re-analysis of the deposited data

How the results depend on the processing

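Stricter calling changed the counts most. A q of 1e-10 left 3 shared peaks at 3 genes (*Zfpm1*, *Gata2* and *Tal1*), 0 at a gene start, 19.6% of all genes and 10 partner genes, and WGATAR at 100% of these summits. A minimum of 5-fold in both libraries left 1 peak at 1 gene (*Tal1*), 0 at a gene start, 24.4% of all genes and 11 partner genes. Gene bodies without flanks held 7 peaks at 4 genes, 29.4% of all genes and 13 partner genes. Starts of any transcript gave 4 genes. WGATAR lay within 50 bp of 50% of summits, against 46.9% of all shared summits. AGATAA lay within 100 bp of 50%, against 40.8% of all. Scaling to reads in shared peaks left 0 peaks that differed between the libraries. The same 7 genes had a shared peak with 400-bp windows, a mapping quality of at least 30 and 50-kb flanks. The share of all genes with one was then 56.8%, 54.7% and 71.2%. 100-bp windows and a thinned library 1 lost *Ldb1*, summits within 100 bp lost *Gata1*, and the 10-kb background added *Lmo2*. In that order, these settings gave 45.6%, 52.3%, 49.2% and 62.5% of all genes. The 5 shared peaks of *Zfpm1* fell to 3 with 100-bp windows and with summits within 100 bp, to 1 with a q of 1e-10 and to 0 with the 5-fold minimum.

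With each library alone, peaks in the 9 regions ranged from 13 to 33, genes with a peak from 7 to 9 (library 1 adds *Zfpm2* and *Lmo2*), genes with a peak at the start from 2 to 4, all genes with a peak from 58.9% to 81.2%, partner genes from 22 to 27 and the WGATAR share from 53.8% to 75.8%. For the results over the whole set, 54 of 75 alternative values stayed within 1.5 times the reported value or, for the WGATAR share, within its 95% exact binomial interval. The 75 include the share of all genes with a peak and the count of partner genes, which do not describe the 9 genes. For single genes, 110 of 162 alternative values stayed and 52 moved. Peak counts of single genes were judged by the same 1.5 times, and read densities by the SD of the 2 libraries. The density of either library alone always lies within that SD of their mean. Those values thus could not move, and they are counted among the 110. The cause of the changes between settings was not tested. The chromosome mean as background, starts of the principal transcript, motif search over whole peaks and the E-box before WGATAR (0 of 12 summits, against 952 of 23806) were chosen after seeing the data. No paired analysis was possible because the libraries hold 1 condition. At the library mean a call needed 4.04-fold in library 1 and 5.46-fold in library 2, so at sites with that background lower windows were not detectable at these depths.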
